A study of Mus musculus with 3 samples.

Results

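Gusb and Hprt are 2 of the 15 genes that the arrays name through a RefSeq accession. The arrays hold 60890 probes other than controls, counted whether or not they read above background. Each was read by 1 probe, repeated in 20 spots on every array, and the members were taken by probe name: the probe for NM_010368.1 (Gusb) and the probe for NM_013556.2 (Hprt). Signal was read from the spots without a feature outlier flag, 18, 18 and 20 spots for Gusb and 17, 18 and 18 for Hprt on the arrays of tumor, of spleen from tumor-bearing mice and of wild-type spleen.

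Total RNA was labelled with Cy3 and hybridised to a 1-colour mouse lncRNA array that also carries coding transcripts. Its source was PMN-MDSCs, that is, polymorphonuclear myeloid-derived suppressor cells, which belong to the neutrophil lineage, of male C57BL/6 mice aged 6 to 8 weeks. There were 3 groups with 1 array each: PMN-MDSCs from tumor tissue of tumor-bearing mice, from the spleen of tumor-bearing mice, and from the spleen of wild-type mice. The cells had been enriched with an MDSC isolation kit, stained for CD11b and Ly6G and sorted. The labels name neither the tumor nor how many mice gave RNA to an array. The clone they list for Ly6G, RB6-8C5, is generally known as a Gr-1 antibody, which also recognises Ly6C. None of 42 marker genes of neutrophils, other blood cells and stroma is paired with a probe in the files used here, so the identity of the sorted cells was not checked. No test was possible with 1 array per group, and every error below is an SD between spots of the same probe, which holds no variation between mice or hybridisations. In bulk RNA of this kind, a lower share of cells that express a gene and less of its RNA per cell cannot be told apart.

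Gusb encodes beta-glucuronidase, a lysosomal acid hydrolase that removes glucuronic acid residues from glycosaminoglycans such as heparan, dermatan and chondroitin sulfate as they are broken down. Its loss in humans and mice causes the storage disease mucopolysaccharidosis type VII. Hprt encodes hypoxanthine-guanine phosphoribosyltransferase, a cytosolic enzyme of the X chromosome that returns hypoxanthine and guanine to the nucleotide pool as IMP and GMP, with phosphoribosyl pyrophosphate as the donor. Its loss in humans causes Lesch-Nyhan disease. Neutrophils carry beta-glucuronidase in their granules and lean on purine salvage more than on purine synthesis. Both genes are also widely used to scale quantitative PCR, on the premise that they are expressed evenly.

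The promoters are shown because both genes read lower in the spleen of tumor-bearing mice than in wild-type spleen, while their start regions differ in G and C content and in motifs. The windows span the 250 bases before and 50 bases after the transcript start in RefSeq, build GRCm38.p6. The array grid was designed on mm9, and no array signal is placed on these coordinates. Whether these regions bear on the signals was not tested. Capitals mark matches, on either strand, to the motifs searched. These were the GC box GGGCGG and the cyclic AMP response element (CRE) TGACGTCA, and also the promoter box of sequence TATAAA and the E-box with its core letters CACGTG. The motifs were chosen after the sequences had been read.
Gusb, chr5:130003000-130003299, minus strand: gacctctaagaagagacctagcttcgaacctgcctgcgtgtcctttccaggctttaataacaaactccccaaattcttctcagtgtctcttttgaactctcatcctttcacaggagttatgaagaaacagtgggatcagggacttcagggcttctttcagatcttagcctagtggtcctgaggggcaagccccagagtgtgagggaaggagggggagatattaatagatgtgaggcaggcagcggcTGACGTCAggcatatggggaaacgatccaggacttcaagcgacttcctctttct
Hprt, chrX:52987828-52988127, plus strand: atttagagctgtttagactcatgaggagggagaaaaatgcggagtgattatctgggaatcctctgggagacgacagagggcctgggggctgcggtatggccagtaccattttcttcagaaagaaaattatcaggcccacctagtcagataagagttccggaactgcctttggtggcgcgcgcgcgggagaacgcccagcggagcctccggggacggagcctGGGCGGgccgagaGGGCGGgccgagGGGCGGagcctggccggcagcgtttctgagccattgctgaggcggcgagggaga
The Gusb window held 1 match to the CRE, which spans the start, from base -4 to base 4 with the start as base 1 and no base 0. That motif occurs in 1.79% of 32851 windows of the same length. The Hprt window held 3 GC boxes, at bases -29 to -24, -16 to -11 and -4 to 2, a motif found in 35.7% of windows. Neither held the TATAAA motif (13.6% of windows) or the E-box (7.15%). The Gusb window was 49.7% G and C with 6 CpG dinucleotides, near the medians of 52.7% and 7 over all windows. The Hprt window, with 61.0% and 22, lay above both medians. Of all windows, 73.1% had less G and C than it and 76.9% had fewer CpG dinucleotides. The E-box is the core of the element through which TFEB acts on many lysosomal genes, and no match says only that these letters are not in this window.

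Gusb read highest in wild-type spleen, lower in tumor and lowest in the spleen of tumor-bearing mice. Its processed signal, in the scanner's intensity units before any scaling between arrays, ran from 72811 to 83067 over the spots of the wild-type array, with a median of 76767. On the tumor array it ran from 23236 to 25200, with a median of 24327. On the tumor-bearing spleen array it ran from 10404 to 11221, with a median of 10765. The 3 sets of spots lay far apart and did not overlap.

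The arrays differed in brightness as a whole, so each log2 signal was set against the 75th percentile of its array, at 524 units for tumor, 509 for the spleen of tumor-bearing mice and 698 for wild-type spleen. The resulting level is in log2 units above that percentile. Gusb stood at 6.79 ± 0.06 (SD, 20 spots) in wild-type spleen, 5.54 ± 0.02 (SD, 18 spots) in tumor and 4.41 ± 0.03 (SD, 18 spots) in tumor-bearing spleen. The steps between neighbours in this order were each many times the spot SD.

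Against wild-type spleen, Gusb was 2.39-fold lower in tumor, a log2 difference of -1.25 ± 0.07. It was 5.23-fold lower in tumor-bearing spleen, at -2.39 ± 0.07. Between the cells of tumor-bearing mice it was 2.19-fold higher in the tumor than in the spleen, at 1.13 ± 0.04. Before scaling these were 3.18-fold lower, 7.17-fold lower and 2.26-fold higher.

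Hprt followed the same order with smaller steps. Its processed signal ran from 175635 to 196522 on the wild-type array, with a median of 185557. On the tumor array it ran from 89550 to 107197, with a median of 103002. On the tumor-bearing spleen array it ran from 47878 to 55374, with a median of 52233. These sets of spots did not overlap either, before or after scaling.

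As a level above the 75th percentile, Hprt stood at 8.05 ± 0.05 (SD, 18 spots) in wild-type spleen, 7.62 ± 0.06 (SD, 17 spots) in tumor and 6.67 ± 0.06 (SD, 18 spots) in tumor-bearing spleen. Hprt was 1.35-fold lower in tumor than in wild-type spleen, a log2 difference of -0.43 ± 0.08. It was 2.59-fold lower in tumor-bearing spleen, at -1.38 ± 0.08. It was 1.92-fold higher in the tumor than in tumor-bearing spleen, at 0.94 ± 0.09, just short of 2-fold.

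**Figure D1:**
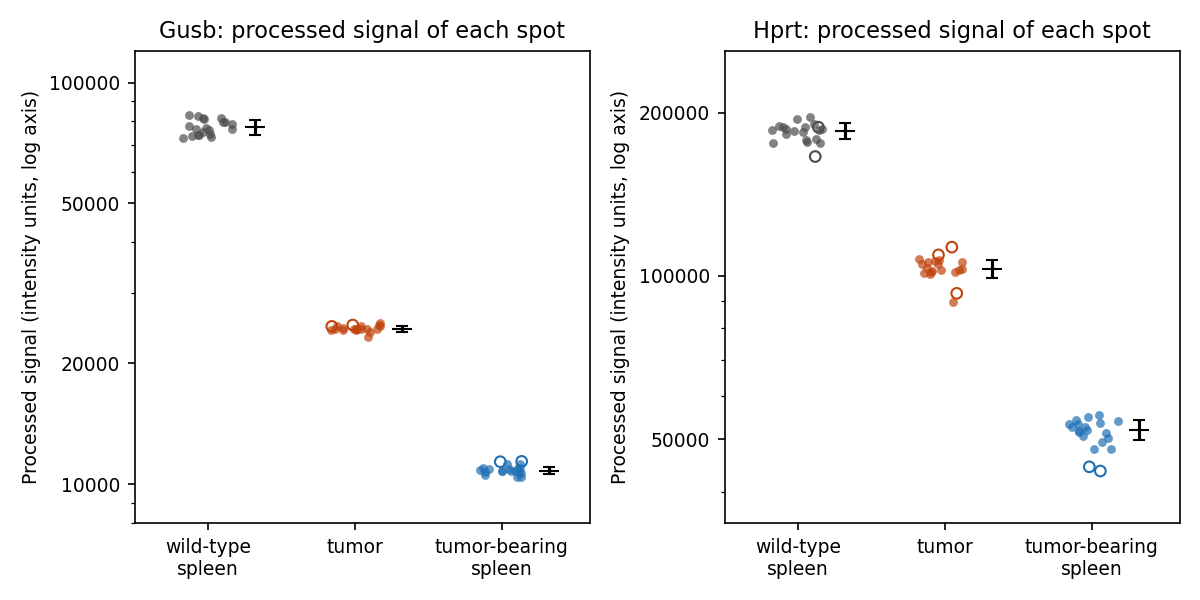
Processed signal of every Gusb (left) and Hprt (right) spot in intensity units on a log axis, by array. Filled points are spots used, open points are spots with a feature outlier flag, and the bar beside each array is the mean ± SD of the spots used. Wild-type spleen is highest, tumor in the middle and tumor-bearing spleen lowest for both genes, and the filled points of different arrays do not overlap.

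All 3 arrays carry the same scan date in the file headers. An RNA length measure moved with the comparisons against wild-type spleen. For Pgk1, a glycolytic kinase, the 5′ probe read lower than the 3′ probe relative to wild-type spleen, by a log2 value of -1.13 ± 0.09 for the tumor array and -1.37 ± 0.12 for the other. For Gapdh it was -0.05 ± 0.10 and -0.16 ± 0.10. Between tumor and tumor-bearing spleen these values were 0.24 ± 0.12 for Pgk1 and 0.11 ± 0.07 for Gapdh. The sources used here do not place the Gusb and Hprt probes along their transcripts, and the part of RNA length in their differences was not tested.

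The array layout allows a spot-by-spot reading, since a probe has the same grid positions on each array. At 18 of 18 positions usable on both arrays Gusb was lower in tumor than in wild-type spleen, by 2.24-fold to 2.55-fold. Tumor-bearing spleen was lower at 18 of 18 positions, by 4.94-fold to 5.70-fold. For Hprt, 16 of 16 positions were lower in tumor, by 1.29-fold to 1.44-fold, and 18 of 18 in tumor-bearing spleen, by 2.44-fold to 2.87-fold. Between tumor and tumor-bearing spleen, 16 of 16 positions were higher in the tumor for each gene, by 2.10-fold to 2.27-fold for Gusb and by 1.82-fold to 2.13-fold for Hprt. Since the sets of spots do not overlap after scaling, the direction at every position was fixed in advance. The counts restate that result, and only the ranges of fold add to it. These positions repeat 1 measurement of 1 RNA per array and are not replicates of a group.

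Read against all probes, neither gene stood out by the size of its difference. Of 43417 probes well above background on both arrays, 18.3% were at least 2-fold lower in tumor than in wild-type spleen, and 1 of the 2 genes, Gusb, was among them. A difference as low as that of Gusb was found for 14.3% of these probes and one as low as that of Hprt for 32.7%. Between the spleens 42317 probes could be compared, and 21.9% of them read lower by 2-fold or more in tumor-bearing mice, with both genes among them. Differences as low as those of Gusb and Hprt were found for 8.83% and 17.4%. Between tumor and tumor-bearing spleen 42838 probes could be compared, and 14.2% of them read higher by 2-fold or more in the tumor, again with 1 of the 2 genes, Gusb. There 11.6% reached the difference of Gusb and 15.4% that of Hprt. The 2 genes are unlike most probes, being averaged over 17 to 20 spots and brighter than the 75th percentile of every array. Most other probes had 1 spot, as 60890 probes and the controls share 62939 spots on an array. The part of spot noise in the spread over all probes was not tested.

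The median over all these probes was 0.02, 0.29 and -0.04 log2 units in the 3 comparisons. Relative to it Gusb stood at -1.27, -2.68 and 1.17, and Hprt at -0.45, -1.67 and 0.99. The first 2 comparisons share the wild-type array and the first and last share the tumor array, so they are not independent of each other. With the mean of the 13 other named genes as the scale, the median over all probes moved to 0.27, 0.39 and 0.11. With the median detected probe as the zero it was -0.13, 0.13 and -0.03.

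**Figure D2:**
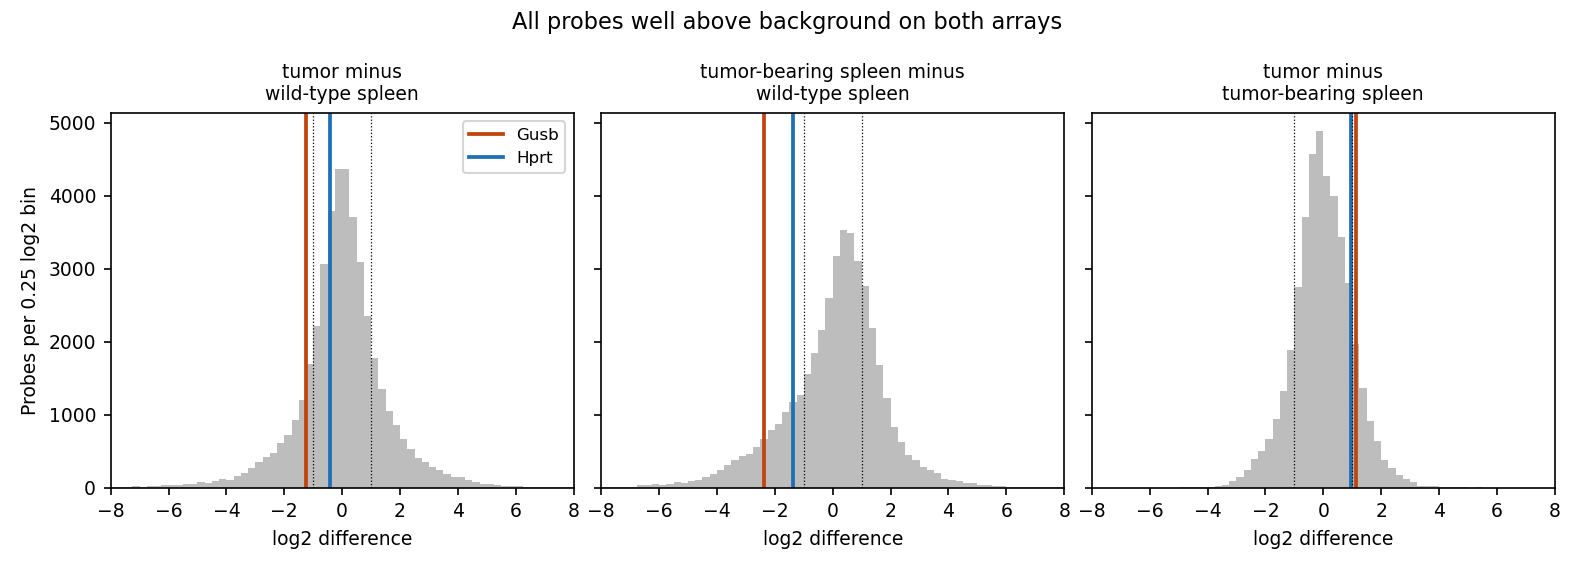
Number of probes per bin of 0.25 log2 units against their log2 difference, for probes well above background on both arrays of each comparison, with lines at Gusb and Hprt and dotted lines at 2-fold. The axis ends at 8 and leaves out 88, 97 and 0 probes. Both genes lie on the lower flank in the comparisons with wild-type spleen and on the upper flank in the last, inside the bulk of the distribution.

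The small difference of Hprt between tumor and wild-type spleen depended on how the arrays were put on 1 scale. It was -0.082 after quantile normalization and -0.066 in the authors' deposited table of normalized log2 values, -0.18 when the mean of the 13 other named genes was the scale, and -0.58 when each array was set to its median detected probe. Its sign was negative under all 9 other choices of scale, background correction and spots. After quantile normalization and in the authors' deposited table, however, it was only about as large as the spot SD of 0.077. Gusb in the same comparison read -0.86 after quantile normalization and -0.86 in the authors' deposited table, short of 2-fold, and -1.40 with the median detected probe as the zero. In tumor-bearing spleen against wild-type spleen both genes stayed at least 2-fold lower under all 9 other choices of scale, background correction and spots, Gusb from -2.55 to -2.04 and Hprt from -1.54 to -1.04.

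The signals of the 2 genes did not differ between arrays by the same fold. The Gusb difference minus the Hprt difference is free of any constant scaling factor, because both probes lie on the same arrays. It was -0.82 ± 0.10 for tumor against wild-type spleen, so the fold of Gusb was 1.77 times that of Hprt. It was -1.01 ± 0.10, or 2.02 times, for tumor-bearing spleen against wild-type spleen. Between tumor and tumor-bearing spleen it was 0.19 ± 0.09, or 1.14 times, about 2.00 spot SDs from 0. Under the 9 other choices of scale, background correction and spots these values stayed within -0.85 to -0.78, -1.02 to -0.99 and 0.16 to 0.23. A constant rescaling of an array cannot move them, so their steadiness under the choices that only rescale follows from how they are formed. The value was large beside the spot SD in both comparisons with the wild-type array and small between the tumor and tumor-bearing spleen arrays. An RNA length effect that differs between transcripts would not cancel in it. In the same order, the 5′ minus 3′ values of the end probes were -1.13, -1.37 and 0.24 for Pgk1. For Gapdh they were -0.05, -0.16 and 0.11. The part of RNA length in the Gusb minus Hprt values was not tested.

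**Figure D3:**
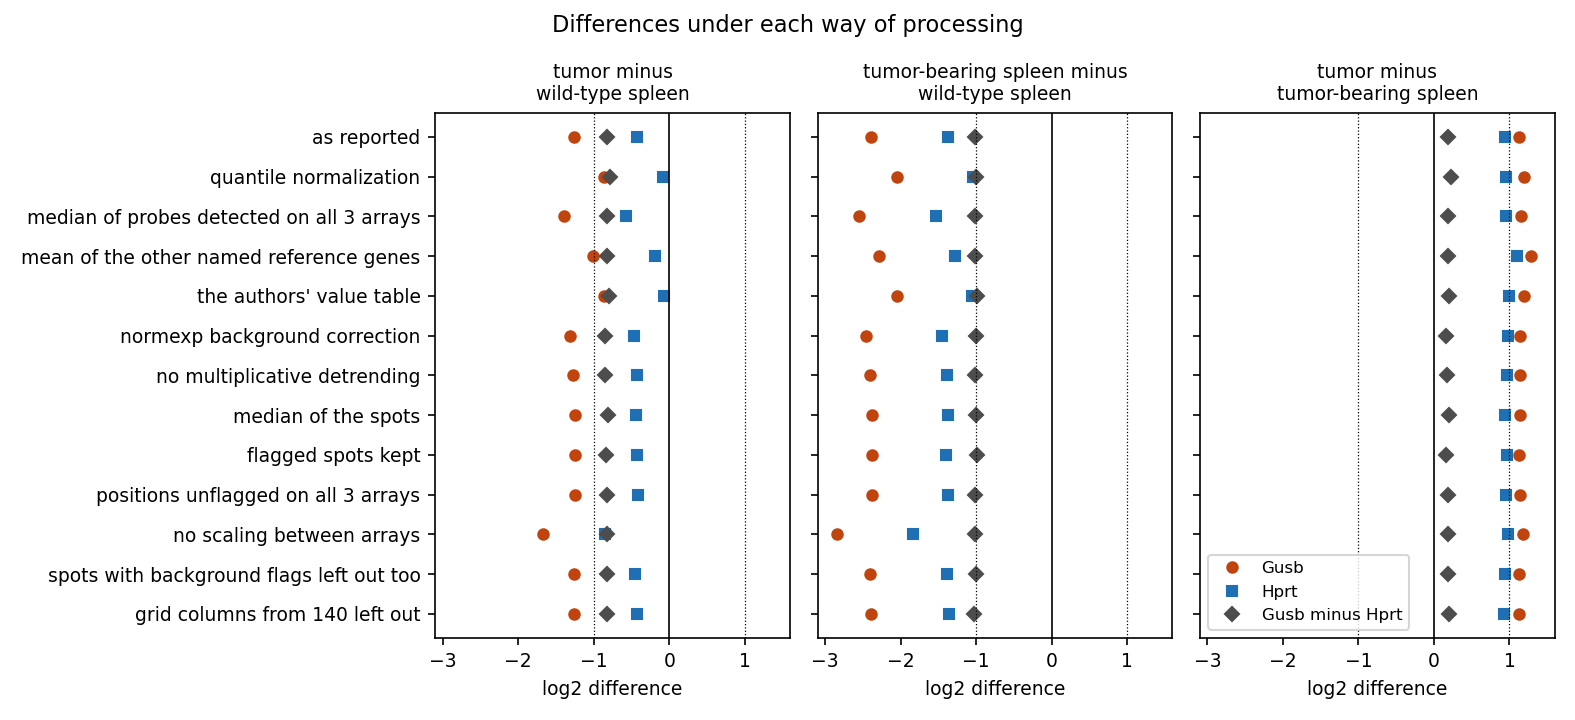
Log2 differences of Gusb (circles), Hprt (squares) and Gusb minus Hprt (diamonds) for the 3 comparisons, with a line for each way of processing and dotted lines at 2-fold. Scaling choices move Gusb and Hprt together, as between -1.40 and -0.86 for Gusb in tumor against wild-type spleen, while the diamonds stay nearly in a column.

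The lists drawn up for the pathways of these enzymes held few measured genes, since the files used here name few coding probes. Of 41 lysosomal genes 1 was measured, Gusb itself. Of 13 genes of purine salvage and breakdown 1 was measured, Hprt, and of 11 genes of purine synthesis 0 were. Whether other lysosomal hydrolases or salvage enzymes read lower was therefore not analysed here.

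Of 19 genes listed as used for scaling in expression work, 12 were among the 15 named genes, Gusb and Hprt included. Pgk1 is also on the list, but it was read only by its end probes and is not counted here. In tumor against wild-type spleen 4 of the 12 were at least 2-fold lower and 0 higher, beside 18.3% lower and 19.6% higher over all probes compared. Their median was -0.42, beside 0.02. In tumor-bearing spleen against wild-type spleen 6 of the 12 were lower and 0 higher, beside 21.9% and 27.4% of all probes, and their median was -1.05, beside 0.29. Between tumor and tumor-bearing spleen 3 read higher by 2-fold or more and 0 lower, beside 14.2% and 14.7% of all probes, and their median was 0.43, beside -0.04. The list was drawn up with earlier results of these data known and leaves out the named genes G6pd2, Gk and Ldhal6b. Those read 1.95, 0.69 and 1.22 in tumor and 3.26, 3.29 and 1.25 in tumor-bearing spleen, both against wild-type spleen. From tumor-bearing spleen to tumor they read -1.31, -2.60 and -0.03. The 1-sided counts hold for this list and not for all the named genes.

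Over the 3 arrays Gusb spanned 2.39 log2 units, the fifth widest span of the 15 named genes, and Hprt spanned 1.38, the eighth widest. Of the probes, 41251 were detected on every array, and over these the median span was 1.28, and 19.5% spanned more than Gusb and 46.2% more than Hprt. Narrower spans were read for B2m, which encodes beta-2-microglobulin, at 0.38 and for Tbp, the TATA-binding protein, at 0.41.

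**Figure D4:**
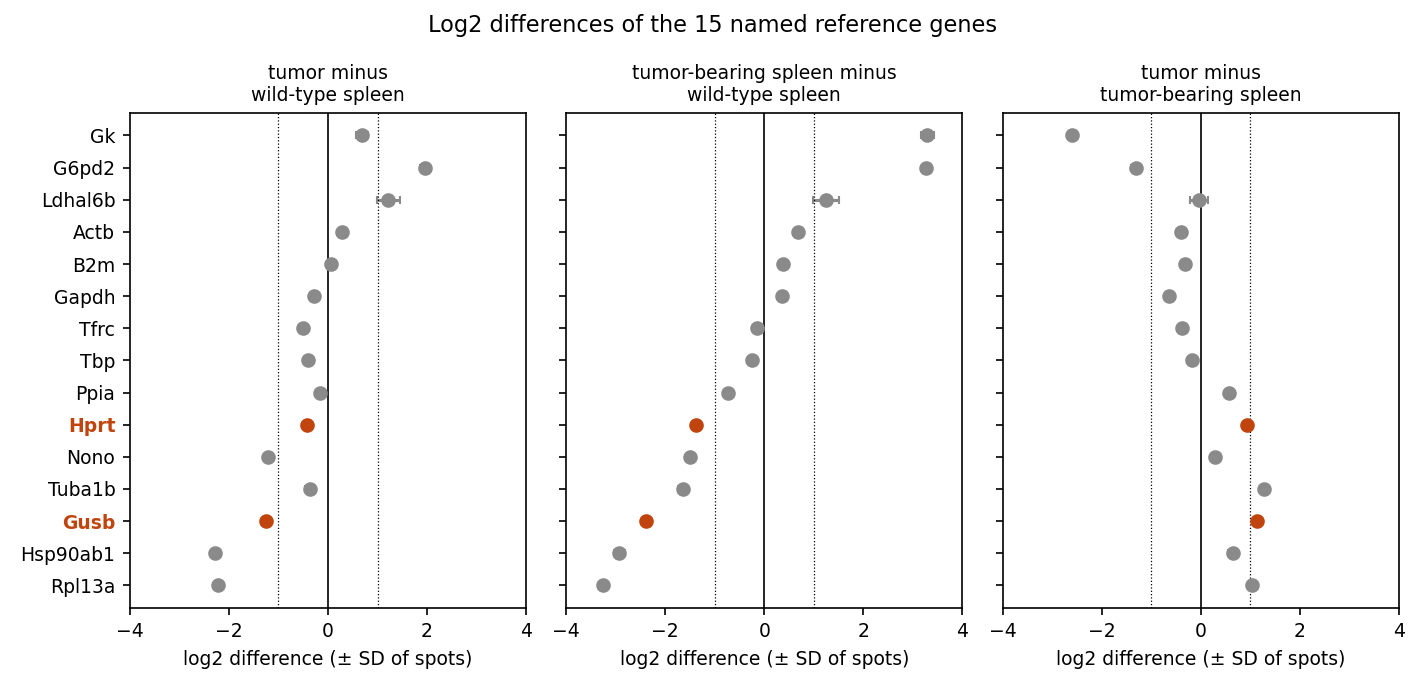
Log2 differences of the 15 named genes in the 3 comparisons, as points with the SD of the spots of both arrays, with Gusb and Hprt in colour and dotted lines at 2-fold. In tumor-bearing spleen against wild-type spleen Gusb lies at -2.39, with 2 other genes lower, and Hprt at -1.38.

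The pattern most like that of Hprt among the 14 other named genes was that of Tuba1b, an alpha-tubulin. Likeness was measured as the Euclidean distance between log2 levels over the 3 arrays after each gene's mean was taken off. The distance of Tuba1b to Hprt was 0.25, followed by Ppia, a peptidyl-prolyl isomerase, at 0.46 and Nono, a nuclear RNA-binding protein, at 0.59. For Tuba1b the differences were -0.37 ± 0.10 in tumor and -1.65 ± 0.08 in tumor-bearing spleen, against wild-type spleen, beside -0.43 and -1.38 for Hprt. After quantile normalization Ppia was closest to Hprt, at 0.13, and Tuba1b next, at 0.40.

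Gusb had no match as close. Its nearest genes were Tuba1b at 0.67, Nono at 0.71 and the chaperone gene Hsp90ab1 at 0.72, and Hprt lay at 0.76. After quantile normalization Tuba1b was again nearest, at 0.43, and Hprt took the place of Hsp90ab1, at 0.75. Of the 41251 probes, 480 (1.16%) lay within 0.25 of Gusb and 788 (1.91%) within 0.25 of Hprt. With 3 arrays such a distance describes these arrays and no more.

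Spot error was small beside these differences. The spots varied by 1.71%, 2.07% and 4.35% of their mean for Gusb and by 3.97%, 4.20% and 3.31% for Hprt (coefficients of variation, with the arrays ordered as above), less than the error of 10% that the extraction software assigned to each spot. All 20 spots of each gene were well above background on every array. The dimmest used spot, for Gusb on the tumor-bearing spleen array, was 763 times the 95th percentile of negative-probe spots there. At the other end 0 spots were saturated, and the brightest, for Hprt on the wild-type array, reached 25.3% of the saturation value.

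Hprt spots in the last grid columns read lower on 1 array. On the tumor-bearing spleen array the 4 used spots in the grid columns from 140 to 164 read 47878 to 50148, all below the 14 others, which read 50737 to 55374. The log2 difference between the 2 sets of positions was -0.12 there, -0.05 on the tumor array and -0.03 on the wild-type array, and on both of these the sets overlapped. Per the file headers that array alone had no multiplicative detrending. With those columns left out, which was chosen after the spots were seen, Hprt in tumor-bearing spleen against wild-type spleen read -1.36 in place of -1.38. Gusb had no spot in these columns.

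**Figure D5:**
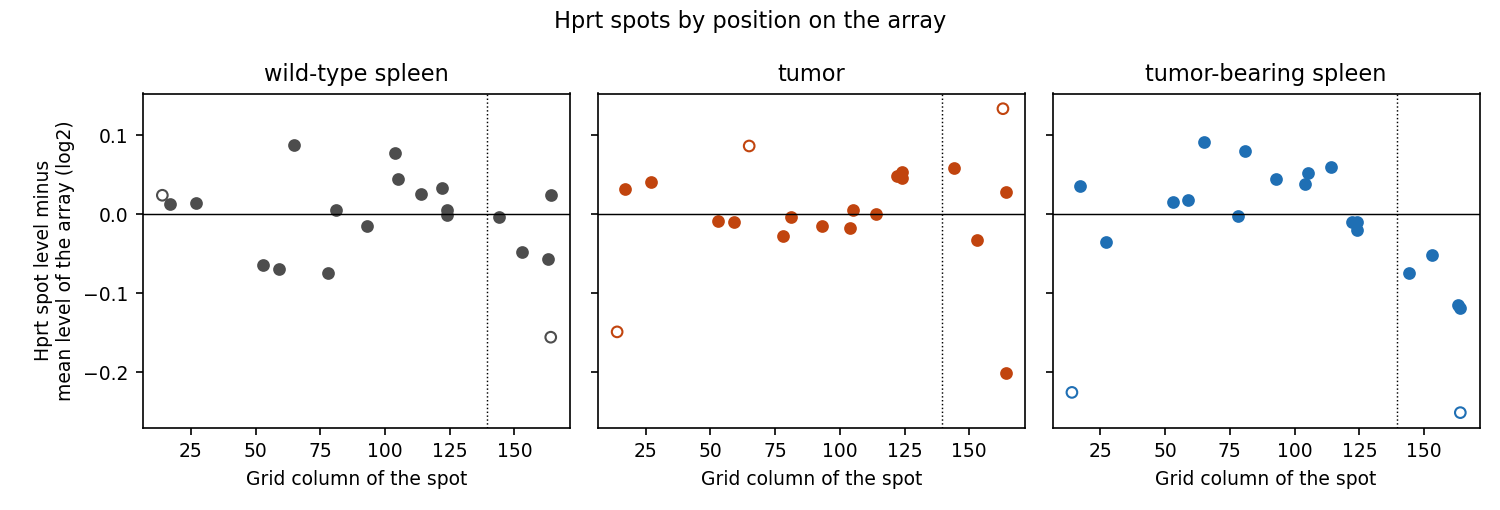
Log2 level of each Hprt spot minus the mean of the used spots of its array, against its grid column, with open points for flagged spots and a dotted line before column 140. On the tumor-bearing spleen array the 4 filled points right of the line lie below the other filled points of that array, and the 2 open points, 1 on each side of the line, lie lower still.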

How the data were processed

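The arrays measured PMN-MDSC RNA of 3 groups with 1 array each. Feature Extraction 11.0.1.1 (Agilent) produced the deposited intensity values, per the file headers, subtracting background and detrending within an array, on a grid of build mm9. Multiplicative detrending was absent on the tumor-bearing spleen array alone. The authors' deposited value table holds log2 values whose scaling the sources used here do not give. From the files, control and negative probes and spots with feature outlier flags (non-uniform or population outlier) were left out, log2 signals were averaged per probe, and the 75th percentile over 60890 probes was subtracted. A probe counted as measured on an array when the software flagged over 0.5 of its spots as well above background. A difference of 2-fold is a descriptive limit. Depth does not apply to arrays, and their number limits the precision. The counting steps were tested on simulated arrays.

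Names came from RefSeq accessions, matched without versions for 15 of 15 probes to a table of GRCm38.p6. The 2 genes, the lists and the comparisons were chosen with earlier results of these data known. Named besides were the 3 genes nearest to each by pattern and the Pgk1 and Gapdh end probes. B2m and Tbp, as the genes of narrowest span, and the named genes off the scaling list were chosen after their values were seen. Alternatives covered the scale, the background correction (normexp, offset 50), the spots used, the filter on dim probes and the size limit. Calculations used Python 3.11.15, numpy 2.4.6, pandas 2.3.3, R 4.3.3, limma 3.58.1 and matplotlib 3.10.9.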

Additional observations from a re-analysis of the deposited data

How the results depend on the processing

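Under the 9 other choices of scale, background correction and spots the 3 differences of Gusb, the 3 of Hprt and the 3 between them kept their signs. Hprt in tumor against wild-type spleen shrank to about the spot SD of 0.077 after quantile normalization and in the authors' deposited table. Values that moved by more than the spot SD were these, in the order tumor against wild-type spleen, tumor-bearing spleen against wild-type spleen and tumor against tumor-bearing spleen. Quantile normalization gave Gusb -0.86, -2.05 and 1.19 and Hprt -0.082 and -1.04. The authors' deposited table gave Gusb -0.86, -2.04 and 1.19 and Hprt -0.066 and -1.06. The median of detected probes gave Gusb -1.40 and -2.55 and Hprt -0.58 and -1.54. The mean of the 13 other named genes gave Gusb -1.01, -2.29 and 1.29 and Hprt -0.18, -1.28 and 1.098, the last of these past 2-fold. Without scaling, an alternative added after the data were seen, Gusb read -1.67, -2.84 and 1.17 and Hprt -0.84 and -1.83. The other two added, leaving out spots with background flags or the grid columns from 140, moved none of the 9 differences by more than the spot SD.

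Counts of probes past the limit moved with its size. At 1.5-fold, 12815 were higher and 12105 lower in tumor than in wild-type spleen, and 11111 higher and 11418 lower than in tumor-bearing spleen. At 4-fold they were 3456 and 3381, and 1166 and 1478, and in tumor-bearing spleen against wild-type spleen 3717 and 4907. In that last comparison the balance turned with the setting, since 11593 were higher and 9260 lower at 2-fold, and 9724 and 10207 when each array was set to its median detected probe. With no filter on dim probes, 9919 were higher in tumor than in tumor-bearing spleen, beside 6068 with it. No paired analysis was possible because each group has 1 array and the labels carry no replicate numbers. No replicate could be left out for the same reason.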

Other observations

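Ratios between genes within an array do not depend on any constant scaling factor, so they show how evenly Gusb and Hprt ran with the other named genes. For each pair of genes the SD of the log2 ratio over the 3 arrays was taken and averaged over the 14 partners of a gene. This mean was 0.99 for Hprt, at rank 6 of 15 from the most even gene, and 1.25 for Gusb, at rank 10. The most even were Tbp at 0.87 and the transferrin receptor gene Tfrc at 0.89, and the least even was Gk, the glycerol kinase gene, at 2.07. Both members ran closest to Tuba1b, with an SD of 0.18 for Hprt and 0.47 for Gusb. Both ran furthest from Gk, at 2.44 and 2.89. The SD of a pair is the distance used above for likeness divided by a constant, so these partners restate that result and add nothing to it. These values rest on 1 array per group and describe the 3 arrays alone.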
